A study of Mus musculus with 20 samples.

Results

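Abhd17a and Abhd17b are paralogs that encode serine hydrolases of the alpha/beta-hydrolase domain family. They were followed through mouse preimplantation development on 20 Affymetrix MOE430B arrays, a platform that reads each transcript with 1 or more probe sets. Of the 9607 genes that have a probe set of their own in the platform's gene annotation, these 2 were taken through their Entrez identifiers, under which they were once called Fam108a and Fam108b. They have 7 probe sets, 3 for Abhd17a and 4 for Abhd17b, out of 22511 that are not controls. The pair was selected on its measured intensities, because the genes changed in opposite directions from oocyte to 1-cell embryo, so that step is described here without a test. Oocytes formed 1 group and 1-cell, 2-cell and 8-cell embryos and blastocysts the other 4, with 4 arrays in each. Per the labels, total RNA was amplified in 2 rounds of in vitro transcription before hybridization. Strain, age, the state of maturation of the oocytes and the number of oocytes or embryos per array are not stated in the labels. Nothing in the labels says that the arrays of a stage came from separate pools, so a p-value here reflects the spread among these arrays alone, and that spread may be technical. Judged by the numbers, the arrays had been scaled to 1 trimmed mean, so a level is relative to the other transcripts on its array. In these bulk samples fewer cells of a type and less RNA per cell cannot be told apart.

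Palmitoylation is the attachment of a fatty acid to cysteines through a thioester bond, and it can be reversed. Enzymes of the Zdhhc family add the palmitate, and depalmitoylases remove it: the acyl protein thioesterases encoded by Lypla1 and Lypla2, the lysosomal thioesterase Ppt1, and the ABHD17 proteins. ABHD17 proteins are themselves palmitoylated at a cysteine-rich N-terminus and are known to remove palmitate from the small GTPase N-Ras and from the synaptic scaffold PSD-95. By cycling palmitate, a cell moves such proteins between the plasma membrane and internal membranes. The period studied runs from the oocyte, which lives on stored transcripts, through degradation of those transcripts and activation of the embryonic genome to the first epithelium of the blastocyst.

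The stage labels were checked against markers. All 18 oocyte markers on the array were at or above the table's median intensity of 82.6 in oocytes. Their summed intensity ranged from 184403 to 228822 on the oocyte arrays and from 187436 to 220944 on the 1-cell arrays, so it does not separate these stages. It was 54157 to 110712 at the 2-cell stage, 7437 to 9016 at the 8-cell stage and 23861 to 29437 in blastocysts. The 4 markers of 2-cell activation summed to at most 277.5 in oocytes and to between 14588 and 16073 at the 2-cell stage. Their sum was higher still at the 8-cell stage, at 18010 to 23716, so it does not single out the 2-cell arrays. From 2-cell to 8-cell 1 of these 4 was called higher and 3 lower (limma). In blastocysts the sum was 700.9 to 1017. The 5 trophectoderm and epithelium markers summed to between 10481 and 15155 in blastocysts and to at most 1976 at every earlier stage, and the 9 markers of inner cell mass and endoderm to between 5002 and 12911 in blastocysts, against 4860 to 5428 in oocytes. Of other cells, the 6 measured cumulus and granulosa markers summed to between 999.6 and 3260 over all arrays and were highest at the 2-cell stage, while 2 sperm markers summed to at most 238.6 and 1 blood or tract marker reached at most 76.8. On the control probe set for the middle of 18S ribosomal RNA, 1-cell embryos read 37007 ± 4510 (SD, n = 4), oocytes 650.2 ± 197, 2-cell embryos 2004 ± 308, 8-cell embryos 3282 ± 854 and blastocysts 2592 ± 473. As a sign of RNA quality, the log2 ratio of the 3' to the 5' probe set of Gapdh was 2.28 ± 0.34 at the 2-cell, 1.04 ± 0.39 at the 8-cell and 2.38 ± 0.47 at the blastocyst stage, and that of beta-actin was 2.33 ± 0.24, 1.93 ± 0.10 and 1.09 ± 0.27. The part of these signals in the results below was not tested.

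The upstream sequences of the paralogs are shown because both genes changed on the arrays after the embryonic genome becomes active, and in opposite directions. Each is the 250 bases before the RefSeq start of the gene in GRCm38.p6, read 5' to 3' on the gene's strand, with capitals at any match on either strand to the GC box GGGCGG, the CCAAT box, the TATA motif TATAAA or the ETS core TTCCGG. Motifs were counted independently, overlaps included. Abhd17a lies at chr10:80590342-80590591 on the minus strand and Abhd17b at chr19:21653059-21653308 on the plus strand.
Abhd17a: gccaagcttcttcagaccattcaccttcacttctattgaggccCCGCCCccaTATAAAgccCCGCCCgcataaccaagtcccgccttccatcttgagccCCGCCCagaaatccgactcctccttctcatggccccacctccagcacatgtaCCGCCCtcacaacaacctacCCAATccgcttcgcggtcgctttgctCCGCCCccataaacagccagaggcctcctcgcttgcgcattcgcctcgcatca
Abhd17b: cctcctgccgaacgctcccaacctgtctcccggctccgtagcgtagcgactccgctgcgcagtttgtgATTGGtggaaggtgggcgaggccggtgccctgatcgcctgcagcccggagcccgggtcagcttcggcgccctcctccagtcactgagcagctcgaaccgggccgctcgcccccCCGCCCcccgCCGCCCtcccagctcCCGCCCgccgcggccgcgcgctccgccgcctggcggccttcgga
The Abhd17a window is 59.6% G and C with 16 CpG dinucleotides, and the Abhd17b window is 75.2% G and C with 33. Over 32851 promoter windows of this length the medians were 52.4% and 6. GGGCGG matched at 5 places in the Abhd17a window and at 3 in that of Abhd17b, and was present in 32.7% of all windows. CCAAT matched once in each and was present in 33.8% of windows, TATAAA matched only in Abhd17a and was present in 12.4%, and TTCCGG, present in 12%, matched in neither. These matches describe the letters of the windows only.

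Abhd17a was high in oocytes, near the array background at the 1-cell stage, and highest in blastocysts on the probe set with the gene's highest mean, 1415753_at. The 4 oocyte arrays read 318.4, 335.2, 428.8 and 467.6, and the 4 1-cell arrays 21.8, 24.4, 10.4 and 14.8. The 1-cell mean of 17.9 ± 6.41 (SD, n = 4) was under 20, a value that lies at the 20th percentile of the whole table, so it cannot be separated from background in a table without detection calls. At the 2-cell stage the arrays read 119.6, 115.9, 411.2 and 249.1, at the 8-cell stage 932.1, 908.2, 640.5 and 833.7, and in blastocysts 1518, 1539, 1646 and 1305. The 2-cell arrays were the most spread, with a mean of 224 ± 139 and replicate 3 the highest. From high to low the order was blastocyst, 8-cell, oocyte, 2-cell and 1-cell, and between neighbours in that order only the oocyte and 2-cell arrays overlapped. The mean lay at the 89.4th percentile of the array's probe sets in oocytes, at the 19.6th at the 1-cell stage and at the 98.4th in blastocysts.

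The other probe sets of Abhd17a did not share all of this pattern. Probe set 1442883_s_at, of the type whose probes can match more than 1 transcript, gave the same order of stages over a narrower range. Its means were 488.8 ± 67.0 (SD, n = 4) in oocytes, 160.3 ± 69.6 at the 1-cell, 413.1 ± 113 in 2-cell and 744.1 ± 167 in 8-cell embryos, and 1135 ± 131 in blastocysts. Here too the 1-cell arrays, at 106.9, 260.4, 153.8 and 120, lay below all oocyte arrays, of which the lowest was 430.9. Probe set 1458474_at read 396.7 ± 38.8 in oocytes and 402.7 ± 31.1 at the 1-cell stage, and these arrays overlapped. It was highest at the 8-cell stage, at 792.7 ± 208, with 497.9 ± 178 before and 489.6 ± 90.0 after. Over the 20 arrays, which share 5 stages, the log2 values of 1415753_at correlated with those of the s_at probe set at r = 0.96 and with those of 1458474_at at r = 0.47, given as a description.

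**Figure D1:**
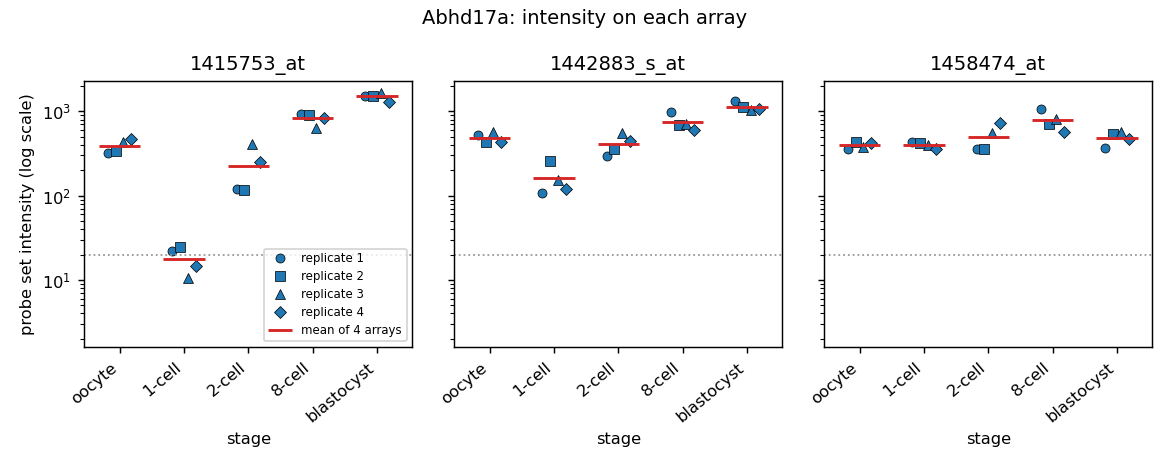
Intensity (log axis) of the 3 Abhd17a probe sets on each of the 4 arrays of 5 stages. Points are arrays, shaped by replicate number, red bars are stage means, and the dotted line is 20. The 1-cell arrays of 1415753_at lie between 10.4 and 24.4, whereas those of 1458474_at lie between 360.7 and 430.

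On its brightest probe sets Abhd17b was higher from the oocyte to the 2-cell stage than from the 8-cell stage on. Probe set 1454724_x_at, of the type that can bind related transcripts, read 3214, 2339, 3171 and 2748 in oocytes and 6334, 4583, 5258 and 3676 at the 1-cell stage. It then read 4566, 4834, 4062 and 3578 at the 2-cell stage, 603.7, 1172, 967.8 and 502.4 at the 8-cell stage, and 1196, 930.2, 909.4 and 1217 in blastocysts. The lowest of the 12 arrays of the early stages, at 2339, was above the highest of the 8 later ones, at 1217. The order was 1-cell, 2-cell, oocyte, blastocyst and 8-cell, and the 1-cell and 2-cell arrays overlapped, as did blastocyst and 8-cell arrays. The mean was at the 98.9th percentile of the array in oocytes, and still at the 95.9th at the 8-cell stage and the 97.3rd in blastocysts.

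Probe set 1433771_at stems from the same source sequence in the annotation as 1454724_x_at and is not of the x_at type. It averaged 1209 ± 184 (SD, n = 4) in oocytes, 2017 ± 758 in 1-cell, 1777 ± 574 in 2-cell and 287.8 ± 94.2 in 8-cell embryos, and 365.8 ± 155 in blastocysts, which is the same order of stages. The 1-cell arrays of this probe set, from 1072 to 2812, overlapped the oocyte arrays, from 1029 to 1451. The pair correlated at r = 0.96 over the 20 arrays and at r = 0.70 around the stage means, as a description of probe sets that share a source.

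The remaining pair of Abhd17b probe sets, which share another source sequence, behaved differently. Probe set 1433412_at was near background in oocytes, at 20.1, 23, 11.8 and 15.5, and read 324.5, 140.7, 244.3 and 191.5 at the 1-cell stage. It was 45.3 ± 17.2 (SD, n = 4) at the 2-cell stage, with 69.8 as the highest array, 27.6 ± 3.82 in 8-cell embryos and 26.9 ± 4.91 in blastocysts. All 1-cell arrays of this probe set lay above all arrays of the other stages. Probe set 1433411_at was uneven between replicates at the 1-cell stage, with 14.9, 242.1, 40.4 and 290 on its arrays, and averaged between 14.6 and 49.9 at the other stages. Thus the 1-cell mean was the highest of the 5 stages on each of the 4 probe sets, but the oocyte level ranged from near background to near the top of the array.

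**Figure D2:**
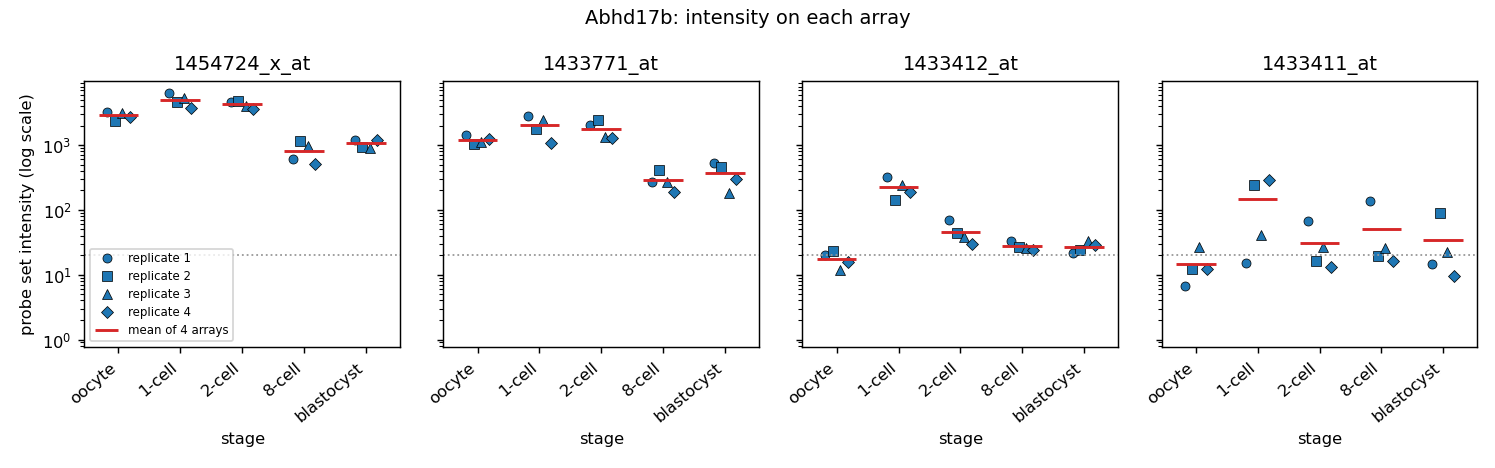
Intensity (log axis) of the 4 Abhd17b probe sets on each of the 4 arrays of 5 stages. Points are arrays, shaped by replicate number, red bars are stage means, and the dotted line is 20. On 1454724_x_at and 1433771_at the 8-cell and blastocyst arrays sit below all arrays of the first 3 stages, while 1433412_at is high only at the 1-cell stage.

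The step from oocyte to 1-cell embryo is the one that chose the pair, and its values are given as a description. On the log2(intensity + 20) scale, which understates the change of low values, 1415753_at of Abhd17a differed by -3.43 and 1442883_s_at by -1.56, while 1458474_at differed by 0.02. Among Abhd17b probe sets the difference was 0.77 for 1454724_x_at, 0.65 for 1433771_at, 2.66 for 1433412_at and 1.76 for 1433411_at. Where a stage lies near background the size depends on the value added before the logarithm: with 5 and with 80 it was -4.13 and -2.25 for 1415753_at, 3.31 and 1.61 for 1433412_at, and 2.30 and 1.03 for 1433411_at. All 4 arrays of one stage lay to one side of all 4 of the other for 2 of 3 Abhd17a probe sets, lower at the 1-cell stage, and for 2 of 4 Abhd17b probe sets, higher. Over all tested probe sets such separation was seen in 6.96% for lower and 6.38% for higher values. The opposite change of the paralogs was therefore read on some and not all of their probe sets. Over this step the 18S signal went from at most 850 to at least 32272 on every array, and its part in these differences was not tested.

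The step from the 1-cell to the 2-cell stage is also given without a test, because it rests on the same 1-cell arrays. Probe set 1415753_at of Abhd17a was 2.53 log2 units higher at the 2-cell stage and 1442883_s_at 1.30 higher, both without overlap, and 1458474_at 0.23 higher with overlap. The first of these was 3.17 with 5 added and 1.53 with 80 added. Of Abhd17b, 1454724_x_at differed by -0.20 and 1433771_at by -0.15 with overlapping arrays, while 1433412_at differed by -1.89 without overlap. Both overlapping differences changed sign under quantile normalization, to 0.30 and 0.19, and that of 1433771_at was 0.04 without 1-cell replicate 1. Among all tested probe sets 13.4% were higher and 10.5% lower without overlap at this step. The 2-cell mean of Abhd17a on 1415753_at was 0.58 times the oocyte mean, with overlapping arrays.

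The arrays of the 2-cell, 8-cell and blastocyst stages took no part in choosing the genes, though they counted toward which probe set was brightest. They were compared in a limma fit over all 20 arrays. From the 2-cell to the 8-cell stage Abhd17a rose and Abhd17b fell. On 1415753_at Abhd17a went from 224 ± 139 (SD, n = 4) to 828.6 ± 132, which is 1.96 ± 0.27 on the log2 scale (SE, adjusted p = 3.43e-06, limma). The lowest 8-cell array, at 640.5, was above the highest 2-cell array, at 411.2. The other probe sets of the gene rose by less: 1442883_s_at by 0.83 ± 0.22 log2 units (adjusted p = 0.00648) and 1458474_at by 0.68 ± 0.21 (adjusted p = 0.0183), the latter with overlapping arrays. For 1458474_at the rise was lost when 1 array was left out, with an adjusted p of 0.0824 without 2-cell replicate 1, 0.079 without 2-cell replicate 2 and 0.0854 without 8-cell replicate 1. In a fit of these stages alone it was 0.059. Abhd17b went from 4260 ± 556 to 811.4 ± 312 on 1454724_x_at, or -2.43 ± 0.22 in log2 units (adjusted p = 4.51e-09), with no overlap between the stages. On 1433771_at it fell by 2.54 (-2.54 ± 0.30, adjusted p = 3.87e-07), again without overlap. Neither probe set of the dim Abhd17b pair was called at this step. The dim pair is left out of this count: both were under the filter value of 82.6 on all 2-cell arrays, and 1433412_at passed the filter through its 4 1-cell arrays alone. So 3 of 3 Abhd17a probe sets were called higher, as were 14.1% of all 15234 tested probe sets, and both bright Abhd17b probe sets were called lower, as were 13.4% of all.

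The paralogs were also compared within each array, as the log2 value of Abhd17b minus that of Abhd17a on their brightest probe sets, which measures unequal change and not which gene is more abundant. This difference went from 4.29 ± 0.95 (SD, n = 4) at the 2-cell stage to -0.09 ± 0.66 at the 8-cell stage and -0.50 ± 0.34 in blastocysts. Its change of -4.39 from 2-cell to 8-cell had a 2-sided exact permutation p of 0.0286, the smallest that 4 against 4 arrays can give, and 0.0429 after adjustment over 3 comparisons. From 2-cell to blastocyst it changed by -4.79 (2-sided exact permutation p = 0.0286, adjusted 0.0429). On these probe sets neither gene's arrays overlapped between the stages compared. Both p-values follow from that and add no independent evidence. Between the 8-cell stage and the blastocyst the difference changed by -0.40, within the spread of the arrays (exact permutation p = 0.286, adjusted 0.286). Read from 1433771_at in place of the x_at probe set, the change from 2-cell to 8-cell was also without overlap, at -4.49. With 1458474_at standing for Abhd17a, relative to 2-cell embryos the change was -3.11 in 8-cell embryos and -2.01 in blastocysts, and between those later stages it turned to 1.10 (exact permutation, adjusted p = 0.0571).

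**Figure D3:**
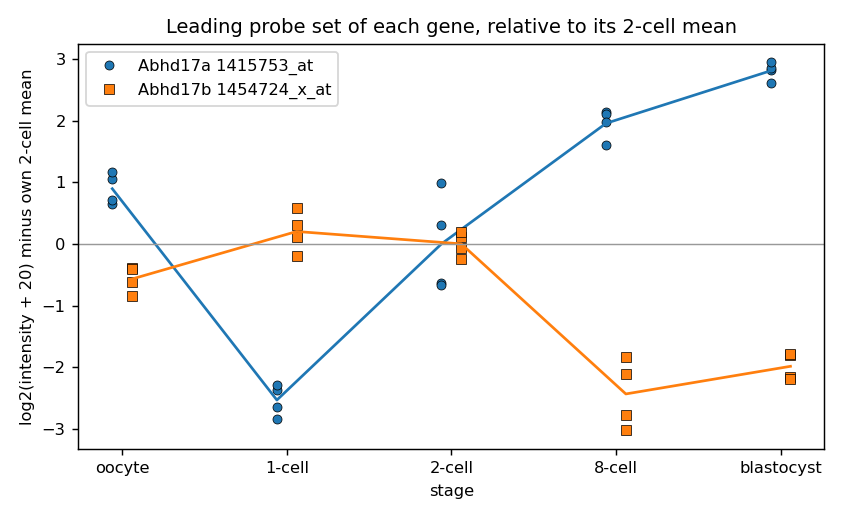
Log2(intensity + 20) of the brightest probe set of each gene on every array, minus that probe set's own mean at the 2-cell stage, by stage. Points are arrays, circles for Abhd17a and squares for Abhd17b, and lines join stage means. After the 2-cell stage Abhd17a moves up by 1.96 and Abhd17b fell by 2.43 at the 8-cell stage.

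From the 8-cell stage to the blastocyst the changes were smaller and the Abhd17a probe sets did not move together. Abhd17a rose on 1415753_at from 828.6 ± 132 (SD, n = 4) to 1502 ± 143, which is 0.85 ± 0.27 on the log2 scale (SE, adjusted p = 0.0338, limma), and the highest 8-cell array, at 932.1, was below the lowest blastocyst array, at 1305. On 1458474_at it fell from 792.7 ± 208 to 489.6 ± 90.0, or -0.66 ± 0.21 in log2 units (adjusted p = 0.038), and the highest blastocyst array, at 575.4, just overlapped the lowest 8-cell array, at 575.3. Probe set 1442883_s_at changed by 0.61 ± 0.22 and did not pass (adjusted p = 0.0707). Both calls were fragile: that of 1415753_at was lost with an adjusted p of 0.107 without 8-cell replicate 3, 0.0587 without 8-cell replicate 4, and 0.068, 0.0706 and 0.079 without blastocyst replicates 1, 2 and 3. That of 1458474_at was lost with an adjusted p of 0.153, 0.0546 and 0.0808 without 8-cell replicates 1, 2 and 3, and of 0.132 and 0.0721 without blastocyst replicates 1 and 4. Neither bright Abhd17b probe set passed by limma, with log2 changes of 0.45 (adjusted p = 0.204) and 0.27 (adjusted p = 0.637). So 1 of 3 Abhd17a probe sets was called higher and 1 lower, against 7.98% and 6.58% of all tested probe sets.

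Across the whole span from 2-cell embryo to blastocyst, Abhd17a rose by 2.81 ± 0.27 log2 units on 1415753_at (SE, adjusted p = 8.65e-09, limma) and by 1.45 ± 0.22 on 1442883_s_at (adjusted p = 1.45e-05). On 1458474_at the change was 0.02 ± 0.21 (adjusted p = 0.959). Abhd17b fell by 1.99 (-1.99 ± 0.22, adjusted p = 9.81e-08) on 1454724_x_at and on 1433771_at the change was -2.27 (± 0.30, adjusted p = 1.73e-06). These comparisons share the 2-cell and blastocyst arrays with those above. Called higher were 2 of 3 Abhd17a probe sets against 15.4% of all, and called lower both bright Abhd17b probe sets against 14.5% of all. Against oocytes, as a description, blastocysts held 3.88 times the Abhd17a intensity on 1415753_at and 0.37 times the Abhd17b intensity on 1454724_x_at.

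Other depalmitoylases and thioesterases were sparsely covered: of 7 listed, Lypla1 and Ppt1 were measured. Lypla1, an acyl protein thioesterase, rose from 447.2 ± 76.3 (SD, n = 4) at the 1-cell to 735.1 ± 121 at the 2-cell stage, or 0.69 in log2 units (adjusted p = 0.00201, limma), a step at which 12.2% of probe sets were called higher and 9.34% lower. It had read 346.8 ± 27.9 in oocytes, and later 677.6 ± 67.8 at the 8-cell stage and 503 ± 50.5 in blastocysts, steps that did not pass. Ppt1, a lysosomal thioesterase, stayed between stage means of 120.8 and 179.8 and passed at no step. Over the span from 2-cell to blastocyst Lypla1 fell by 0.52 on the log2 scale (-0.52, adjusted p = 0.0139, limma), a call lost without 2-cell replicate 1 or blastocyst replicate 4, and Ppt1 did not pass.

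Of 27 listed palmitoyl acyltransferases and their partners, 18 were tested. From oocyte to 1-cell, Zdhhc18 rose from 514.9 ± 112 (SD, n = 4) to 1047 ± 371 and no other passed (adjusted p = 0.0216, limma). At that step 2.67% of all probe sets were called higher and 4.26% lower. The call of Zdhhc18 was lost, leaving 0 of 18, without oocyte replicate 2 or 4 or without 1-cell replicate 1, 2 or 3. From 1-cell to 2-cell 5 fell, none rose and 13 did not pass, against 9.34% of all tested probe sets called lower and 12.2% higher, with a median log2 change of -0.22 against 0.07. Zdhhc24 fell from 917.9 ± 338 to 171.4 ± 37.3, and Golga7, the partner that Zdhhc9 needs to palmitoylate Ras proteins, from 5614 ± 678 to 2291 ± 617. Zdhhc18 returned to 411 ± 91.0 and Zdhhc13 fell from 1117 ± 278 to 413.4 ± 124. From 2-cell to 8-cell 4 rose, 1 fell and 13 did not pass, where 14.1% of all tested were higher and 13.4% lower (median 0.10, against 0.10 over all). Zdhhc21 rose from 94 ± 41.8 to 345.4 ± 29.0 and Golga7 returned to 4668 ± 622. Zdhhc23 went from 34.9 ± 18.7 to 205.2 ± 125, while Zdhhc13 fell to 231 ± 139, a call lost without 2-cell replicate 1 or 8-cell replicate 4. From 8-cell to blastocyst 4 rose, none fell and 14 did not pass, where 7.98% of all tested were higher and 6.58% lower (median 0.15, against -0.07 over all). These were Zdhhc6, from 718.6 ± 135 to 2647 ± 943, Zdhhc13, to 901.9 ± 124, Zdhhc17, from 446.3 ± 16.3 to 864 ± 163, and Zdhhc21, to 1019 ± 120. The probe set of Zdhhc6 is of the x_at type.

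Among palmitoylated proteins, 8 of 38 listed genes were tested; Nras, Hras and Dlg4, which encode N-Ras, H-Ras and PSD-95, were not among the named probe sets. From 2-cell to 8-cell 4 rose, none fell and 4 did not pass, where 14.1% of all tested were higher and 13.4% lower (median 0.51, against 0.10). The G-protein subunit genes Gna13 and Gnaq rose from 339.9 ± 27.9 (SD, n = 4) to 924.4 ± 254 and from 185 ± 47.7 to 365.8 ± 47.2. Map6, which encodes a microtubule protein that ABHD17 is known to act on, rose from 133.8 ± 43.0 to 311.8 ± 78.2 (adjusted p = 0.00823, limma), and the Src-family kinase gene Yes1 from 157.4 ± 77.1 to 352.5 ± 138. In blastocysts Gna13 rose on to 2492 ± 409 and Gnaq to 694.5 ± 77.0, while the other 6 did not pass. At that step 7.98% of all tested were called higher and 6.58% lower. From oocyte to 1-cell, Canx, which encodes the chaperone calnexin, rose, Gnas fell and 6 did not pass. There 2.67% of all tested were called higher and 4.26% lower. The call of Canx was lost without oocyte replicate 2 or 1-cell replicate 1 or 3, and that of Gnas without any 1 of the 4 oocyte arrays or 1-cell replicate 1, 2 or 3. From 1-cell to 2-cell Gnaz rose and Gnaq fell, the latter lost without 1-cell replicate 4 or 2-cell replicate 1. The other 6 did not pass, where 12.2% of all tested were called higher and 9.34% lower. Gnaz went from 26.8 ± 18.4, near background, to 118.3 ± 27.7.

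Of 32 listed genes of the Ras cycle and its effectors, 11 were tested. From 2-cell to 8-cell 3 rose, 1 fell and 7 did not pass, beside the same 14.1% and 13.4% of all tested (median 0.37, against 0.10). Rasa2, which encodes a GTPase-activating protein that switches Ras off, fell from 3868 ± 565 (SD, n = 4) to 305 ± 45.0, or -3.58 in log2 units (adjusted p = 3.3e-13, limma). It had risen from 3120 ± 424 in oocytes to 5455 ± 1236 at the 1-cell stage (adjusted p = 0.00972), so it was high and low at the same stages as the bright Abhd17b probe sets. Sos1, which encodes an exchange factor that loads Ras with GTP, rose from 75.7 ± 35.1 at the 1-cell stage to 189.4 ± 33.6 in 2-cell and 574.3 ± 150 in 8-cell embryos. Fnta, of the enzyme that farnesylates Ras, went from 9377 ± 2186 to 4046 ± 859 and back to 8110 ± 359 at the same stages. Rasal2, another GTPase-activating protein gene, went from 233.8 ± 26.1 to 124.2 ± 17.2 and 264 ± 79.2. From oocyte to 1-cell 1 of the 11 rose and 10 did not pass, where 2.67% of all tested were called higher and 4.26% lower. From 1-cell to 2-cell 1 rose, 2 fell and 8 did not pass, beside 12.2% higher and 9.34% lower. None of the 11 passed from 8-cell to blastocyst by limma, a step at which 7.98% of all tested were called higher and 6.58% lower.

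**Figure D4:**
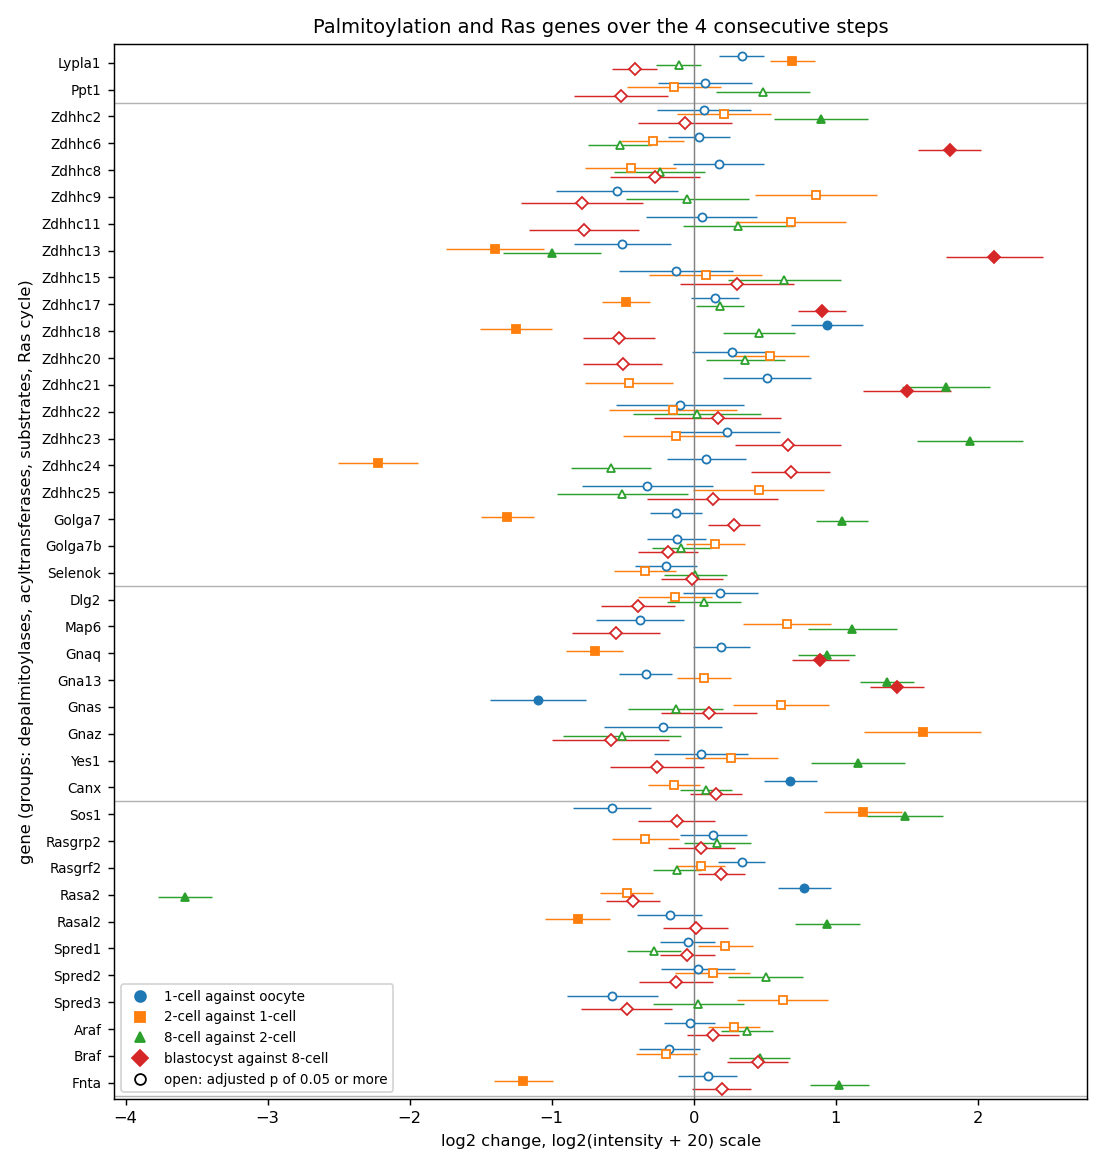
Log2 change ± SE (x axis) of each tested depalmitoylase, acyltransferase, palmitoylated substrate and Ras gene at the 4 consecutive steps, marked by shape and colour. Filled symbols passed an adjusted p under 0.05 and open symbols did not. The point farthest from 0 is Rasa2, which fell by 3.58 from the 2-cell to the 8-cell stage.

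Other genes of the alpha/beta-hydrolase domain family were tested for 9 of 25 listed names. Abhd11, which encodes a mitochondrial hydrolase, rose from 453.9 ± 41.0 (SD, n = 4) in oocytes to 883.6 ± 134 at the 1-cell stage (adjusted p = 0.00304, limma) and fell to 161.7 ± 39.8 at the 2-cell stage. It then rose to 486.7 ± 84.6 at the 8-cell stage and 1075 ± 268 in blastocysts. Abhd13 fell from 4160 ± 666 at the 1-cell stage to 1074 ± 431 in 2-cell and 510.4 ± 150 in 8-cell embryos, in both steps called. Abhd16a, which encodes a lipase of phosphatidylserine, fell over the same steps from 2516 ± 558 to 1104 ± 158 and 758.7 ± 168, and rose to 1163 ± 237 in blastocysts. Abhd2 fell from 494.5 ± 85.7 to 174.2 ± 64.5 at the 2-cell stage and rose from 324.8 ± 155 at the 8-cell stage to 959.6 ± 486 in blastocysts. Abhd14a read 204.8 ± 17.5 in oocytes, 105.2 ± 36.6 in 1-cell and 78.9 ± 44.9 in 2-cell embryos, steps that did not pass. It rose to 147.5 ± 38.0 at the 8-cell stage (adjusted p = 0.0354, limma) and to 417.8 ± 34.5 in blastocysts (adjusted p = 0.00213). At the 1-cell stage 1 of the 9 rose and none fell, at the 2-cell stage 2 rose and 4 fell, at the 8-cell stage 2 rose and 3 fell, and in blastocysts 4 rose and none fell. Of all tested probe sets 2.67%, 12.2%, 14.1% and 7.98% were higher at these steps, and 4.26%, 9.34%, 13.4% and 6.58% lower. Of the 3 falls at the 8-cell stage 1 was left without 2-cell replicate 1 or 2 or 8-cell replicate 2.

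The genes whose pattern was most like that of each paralog were taken by Pearson correlation of log2 values over the 20 arrays, which share 5 stages, and are a description. For Abhd17a on 1415753_at they were Eif4h (r = 0.96), Psmb5 (r = 0.94), Mrpl43 (r = 0.94), Rpl22 (r = 0.94) and Pfdn6 (r = 0.94). Eif4h encodes a translation factor, Psmb5 a catalytic proteasome subunit, Mrpl43 and Rpl22 proteins of the mitochondrial and cytosolic ribosome, and Pfdn6 a subunit of the prefoldin chaperone. Each had its lowest stage mean at the 1-cell stage, as Eif4h with 511.3 ± 179 (SD, n = 4) in oocytes, 43.1 ± 18.8 in 1-cell and 309 ± 210 in 2-cell embryos. Eif4h and Mrpl43 then read 1927 ± 215 and 1592 ± 301 at the 8-cell stage. For Abhd17b on 1454724_x_at they were Angel2 (r = 0.98), Glis3 (r = 0.97), Fpgt (r = 0.96), Rims1 (r = 0.96) and Zfp930 (r = 0.96). Angel2 encodes a protein related to the deadenylases of the CCR4 family and Glis3 a zinc finger transcription factor. Angel2 read 812.9 ± 131 in oocytes, 2031 ± 504 at the 1-cell, 1843 ± 163 in 2-cell and 50.9 ± 25.3 in 8-cell embryos. All 5 had stage means in the first 3 stages above both of their later ones.

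**Figure D5:**
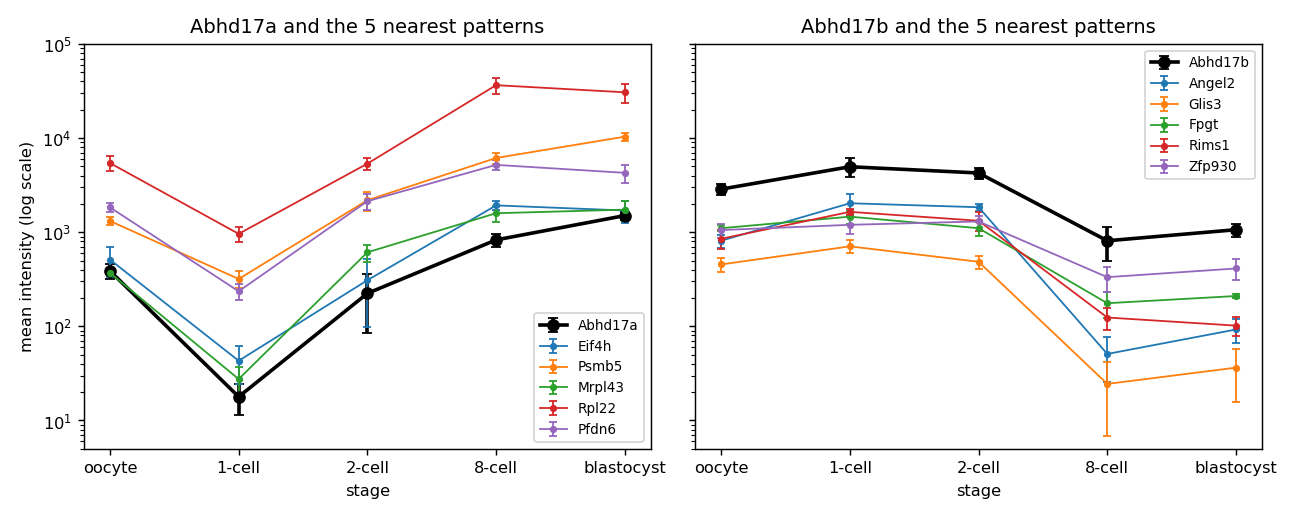
Mean intensity ± SD (n = 4, log axis) by stage for the brightest probe set of Abhd17a (left) and Abhd17b (right), in black, and the 5 genes with the highest correlation to each, in colour. The genes on the left share a low at the 1-cell stage, and those on the right drop between the 2-cell and the 8-cell stage.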

How the data were processed

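The authors deposited a linear intensity for each of 22575 probe sets, 64 of them controls; how they summarized probes and scaled arrays is not given in the sources read. Judged by the numbers, the mean after trimming 2% at each end is equal on all arrays. Stages and replicate numbers came from the sample titles. No arrays were identical: at least 99.7% of probe sets differed in each of 190 pairs. Names came from the platform annotation, updated through Entrez identifiers with the RefSeq gene table of GRCm38.p6; 14661 probe sets have 1 symbol, 245 several and 7605 none. Values were transformed to log2(value + 20), and 15234 probe sets that reached the median of the table, 82.6, on 4 or more arrays were tested, all 7 of Abhd17a and Abhd17b among them, 1433412_at through its 1-cell arrays only. Stage means were fitted over all arrays with limma 3.58.1 (R 4.3.3; 15 residual degrees of freedom, eBayes with an intensity trend), with Benjamini-Hochberg adjustment within each comparison and a call at an adjusted p under 0.05; the code was tested on simulated data. The probe set with the highest mean over all 20 arrays stands for a gene. The paralogs' unequal change was tested by exact permutation over arrays. Genes and lists were chosen with earlier results of these data known. Named were all probe sets of the paralogs, fixed depalmitoylase and substrate names, up to 4 called genes with the smallest p per list and step, and the 5 nearest patterns. Samples with the same replicate number did not deviate together: the correlation of their deviations from stage means was between -0.0616 and 0.0635 in 40 pairs.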

Additional observations from a re-analysis of the deposited data

Results flagged for a closer look

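Single arrays stood apart from the other 3 of their stage by more than Dixon's 95% critical ratio in 8 of 215 groups of 4 arrays examined, where chance gives about 1 in 20. Of the 35 groups of the paralogs 2 were concerned, both on the dim Abhd17b probe set 1433411_at: 8-cell replicate 1 at 138.1, next to 25.5, and blastocyst replicate 2 at 90.5, next to 22.1. Among pathway genes they were Zdhhc13 (597.7, next to 365.7) and Golga7 (3213, next to 2058) on 2-cell replicate 1, Zdhhc23 on 1-cell replicate 2 (66.6, next to 32.2), Gnaz on 1-cell replicate 4 (54.3, next to 18.8), Yes1 on blastocyst replicate 2 (501.4, next to 247.2) and Rasal2 on oocyte replicate 1 (335.3, next to 252.1).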

How the results depend on the processing

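On the brightest probe set of each gene, Abhd17b fell and Abhd17a rose from the 2-cell to the 8-cell stage and to the blastocyst. These changes kept their direction and call under all 9 alternatives of pseudocount, filter, normalization, variance model, array weights, replicate block and stages fitted. They also kept them with each of 8 arrays left out. This does not hold for 1458474_at of Abhd17a, as given above. With 1 array left out the log2 changes on the brightest probe sets ranged from 1.73 to 2.29 and from 2.58 to 3.14 for Abhd17a. For Abhd17b they ranged from -2.63 to -2.24 and from -2.07 to -1.92. On 1415753_at the rise of Abhd17a from 8-cell to blastocyst lost its call with a pseudocount of 5 (0.86, adjusted p = 0.0615, limma). It was also lost with no intensity trend (0.85, adjusted p = 0.0567) and with array weights (0.87, adjusted p = 0.0542, limma). With 1 array left out this rise ranged from 0.74 to 0.92 (adjusted p from 0.0422 to 0.107), and the cause was not tested. The change of 1458474_at over that step lost its call with the replicate block (-0.66, adjusted p = 0.053), with no filter (adjusted p = 0.051), with no trend (adjusted p = 0.0715) and with only these stages fitted (adjusted p = 0.056). With the replicate block the change of Abhd17a on 1415753_at was 1.96 (adjusted p = 1.19e-05) from 2-cell to 8-cell and 0.85 (adjusted p = 0.0452) from 8-cell to blastocyst, and the block changed no other call of the paralogs. The unequal change of the paralogs from 8-cell to blastocyst turned to 1.10 (exact permutation, adjusted p = 0.0571) with 1458474_at standing for Abhd17a, an alternative chosen after seeing the data, and ranged from -0.61 to -0.18 with 1 array left out. The differences of both bright Abhd17b probe sets from 1-cell to 2-cell changed sign under quantile normalization, to 0.30 for 1454724_x_at and 0.19 for 1433771_at. The 406 probe sets called higher at the 1-cell stage became 612 with array weights and 255 without 1-cell replicate 2. With no detection calls, values near 20 carry no order, and differences against them moved with the pseudocount.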

Other observations

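Of the 5 genes nearest to Abhd17a in pattern, 3 are read by probe sets numbered close to its own. The 100 probe sets numbered 1415670 to 1415769, the first 100 numbers of the array and a range chosen after this was seen, included 26 called lower in 1-cell embryos relative to oocytes and 5 called higher, or 26.0% and 5%, against 4.26% and 2.67% of all tested probe sets. Between the 1-cell and 2-cell stages 25 of them were called higher and 21 lower, against 12.2% and 9.34% of all. At the step from 2-cell to 8-cell 42 were called higher and 17 lower, against 14.1% and 13.4% of all. The brightest probe set of Abhd17a, which rose at that step, is itself among these 100. From 8-cell to blastocyst 40 of the 100 were called higher and 10 lower, against 7.98% and 6.58% of all. These probe sets were brighter than most, with a median of their mean intensities of 1105 against 147.1 over all tested.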
